A study of Homo sapiens with 4 samples.

Results

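The H/ACA small nucleolar RNAs (snoRNAs) and the small Cajal body RNAs (scaRNAs) are described here across ribosome profiling libraries of 4 human leukemia cell lines. Members are the genes whose name in any of the 4 deposited annotation tables begins with SNORA or SCARNA. The rule gave 190 SNORA and 25 SCARNA genes, 215 of the 60651 genes in the tables. A further 24 genes carry such a name only in another field of the tables, and each was listed at 0 in every library. The series concerns long non-coding RNAs that are also read by ribosomes, and it compares the lines HL60, K562, MOLM13 and THP-1, each with 1 library and no replicate. K562 was derived from chronic myeloid leukemia in blast crisis, THP-1 from acute monocytic leukemia, MOLM13 from acute myeloid leukemia with monocytic features and HL60 from acute myeloid leukemia of promyelocytic type. The labels give no treatment, but the media differed: IMDM for K562 and HL60, RPMI1640 with 2-mercaptoethanol for THP-1 and DMEM for MOLM13. All lines were lysed with cycloheximide, which holds ribosomes on their RNA, and the lysates were digested with ARTseq nuclease, passed over a size-exclusion column and depleted of ribosomal RNA.

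An H/ACA RNA folds into hairpins joined by a short single-stranded hinge with the ANANNA motif (box H) and ends in a tail with the motif ACA. With the proteins dyskerin, NHP2, NOP10 and GAR1 it guides the conversion of uridine to pseudouridine, in ribosomal RNA for most SNORA members and in spliceosomal RNAs for scaRNAs, which reside in Cajal bodies. The C/D box RNAs, named SNORD, instead guide methylation of the ribose, and some scaRNAs carry C/D boxes or both kinds of box. Most human members lie in introns of host genes and are released from the spliced intron. These RNAs are not known as templates for protein synthesis. The nuclease and column steps do not tell a ribosome from another RNA-protein particle, so how far the values reflect the amount of the RNA, its protection or its translation cannot be told apart. In bulk lysates, fewer cells of a kind and less RNA per cell also cannot be told apart.

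Aligned depth was 344 to 973 megabases per library, and members held 31178 in K562, 79783 in THP-1, 25658 in the MOLM13-labelled library and 99462 in HL60 footprint equivalents, which are aligned bases divided by the modal fragment length of 29 bases. Each library was checked against marker genes of its line. The 9 erythroid markers summed to a scaled TPM of 15123 in K562, with 7 above 0, against at most 27.3 elsewhere. The 6 granulocytic markers summed to 9478 in HL60 and 8248 in THP-1, against at most 32.3 in the others. Their sum did not set HL60 apart from THP-1, but single markers differed in both directions. MPO and CEBPE were at 6359 and 229 in HL60, against 38.6 and 4.63 in THP-1. ELANE, AZU1, PRTN3 and CTSG were at 1504, 2065, 1088 and 3548 in THP-1, against 104, 337, 161 and 2288 in HL60. The 8 monocytic markers summed to 4267 in THP-1, with none at 0, but to only 35.1 in the MOLM13-labelled library. There 3 of them, CSF1R, CD68 and ITGAM, were listed at 0, and HL60 had 775. LYZ alone was at 2769 in THP-1. CD14 and ITGAM were lower in THP-1, at 1.55 and 6.99, than in HL60, at 43.1 and 15.5, and the other monocytic markers were higher in THP-1. Of 5 genes typical of a KMT2A rearrangement, HOXA9, HOXA10 and MEF2C were at 29.5, 16.2 and 10.8 in the MOLM13-labelled library, while MEIS1 and FLT3 were listed at 0. In THP-1 the same genes were at 15.7, 18.7 and 87.9, with MEIS1 at 0.304 and FLT3 at 1.83. In K562 HOXA9 and HOXA10 were at 2.61 and 1.65, but MEF2C and MEIS1 were at 32.2 and 1.81, above the MOLM13-labelled library. In HL60 HOXA9, HOXA10 and MEF2C were at 3.05, 2.49 and 1.80. The deposited file of the MOLM13-labelled library also carries another name than its label. The calls, the median differences and the differences of the totals below are therefore also given without it. Intervals below are 95% intervals and cover counting error only; nothing here measures the spread between cultures.

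The sequences of the members that led the totals are shown for the features of the class, and come from GENCODE release 29 transcripts with the same hg38 coordinates as in the tables. Capitals mark box H and the tail ACA, except in SNORA81, where they mark the bases shared with hsa-miR-1248, and in SCARNA6, where they mark TGATGA and CTGA of the C and D boxes. SNORA81 (chr3:186786675-186786852, plus strand, within EIF4A2) was the highest member in every library, and it overlaps an annotated exon of EIF4A2 as well as MIR1248. SCARNA8 (chr9:19063656-19063786, minus strand, intron of HAUS6) and SNORA66 (chr1:92840719-92840851, plus strand, intron of RPL5) carried much of the higher total of THP-1. SNORA73B (chr1:28508559-28508762, plus strand) and SNORA73A (chr1:28507366-28507571, plus strand) are near-identical neighbours in SNHG3. SCARNA6 (chr2:233288676-233288940, plus strand, intron of ATG16L1) is shown as a member with both kinds of box.
SNORA81: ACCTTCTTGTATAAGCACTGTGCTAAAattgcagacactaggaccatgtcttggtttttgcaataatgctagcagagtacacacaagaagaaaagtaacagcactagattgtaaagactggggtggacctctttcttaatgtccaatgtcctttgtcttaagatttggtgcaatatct
SCARNA8: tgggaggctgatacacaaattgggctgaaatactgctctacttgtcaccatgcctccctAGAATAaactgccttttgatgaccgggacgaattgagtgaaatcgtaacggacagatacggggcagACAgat
SNORA66: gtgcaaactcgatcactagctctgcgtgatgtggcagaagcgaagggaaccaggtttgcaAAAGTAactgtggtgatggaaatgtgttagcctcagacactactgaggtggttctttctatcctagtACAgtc
SNORA73B: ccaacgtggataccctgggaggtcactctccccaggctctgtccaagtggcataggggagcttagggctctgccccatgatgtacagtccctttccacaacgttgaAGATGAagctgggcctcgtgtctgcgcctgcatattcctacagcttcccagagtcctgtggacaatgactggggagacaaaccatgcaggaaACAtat
SNORA73A: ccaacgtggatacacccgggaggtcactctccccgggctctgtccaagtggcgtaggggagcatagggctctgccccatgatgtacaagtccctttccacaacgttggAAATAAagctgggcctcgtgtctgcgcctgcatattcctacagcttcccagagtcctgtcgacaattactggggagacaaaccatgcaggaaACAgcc
SCARNA6: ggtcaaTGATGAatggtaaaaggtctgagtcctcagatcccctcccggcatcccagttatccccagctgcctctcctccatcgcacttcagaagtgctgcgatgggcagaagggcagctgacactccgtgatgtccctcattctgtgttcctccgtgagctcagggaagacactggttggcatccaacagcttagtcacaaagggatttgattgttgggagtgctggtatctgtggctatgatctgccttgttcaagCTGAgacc

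Sequences were matched for 214 members, including all 107 with enough signal to be compared. An ACA placed exactly 3 bases before the annotated end was present in 127 of 189 SNORA members (67.2%) and in 12 of 15 H/ACA scaRNAs (80.0%). It was present in 0 of 4 C/D scaRNAs and 0 of 4 mixed ones, in 1.39% of 288 SNORD transcripts and in 2.75% of 12861 other transcripts of 120 to 360 bases. Among SNORA members the share was 75% of the 88 that were compared and 60.4% of the 101 that were not. ANANNA within 20 bases of the midpoint was held by 91.0% of SNORA members, against 62.2% of SNORD transcripts, 79.6% of transcripts named RNU (spliceosomal RNAs and their copies) and 53.6% of the other transcripts of that length. Only the annotated strand was searched. TGATGA in the first 15 bases and CTGA in the last 12 were both held by 4 of 4 mixed scaRNAs, as printed for SCARNA6. SNORA81 has no ACA at that place of its annotated end, which says only that these letters are not there. Length, from 121 to 353 bases, and GC content, from 32.0 to 66.9%, did not order the members by level: Spearman's rho with the mean level was 0.03 and -0.11 over the 107 members, a description across genes that share libraries.

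Of the 215 members, 107 had at least 600 aligned bases, or 20.7 footprint equivalents, in at least 1 library and were compared. The other 108 were under that minimum everywhere, 74 of them listed at 0 in all 4 libraries and 34 with traces. Members with any signal came to 111 in K562, 119 in THP-1, 112 in the MOLM13-labelled library and 129 in HL60, and 59 reached the minimum in every library. Many members listed at 0 share their name with other genes. The 12 names given to more than 1 gene cover 57 genes, of which 43 were listed at 0 everywhere and 9 were compared, whereas 98 of the 158 genes with a name of their own were compared. SNORA70, for example, names 14 genes, 13 of them listed at 0 throughout and the other one never above 0.158 scaled TPM.

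The share of all TPM held by the members was 1.14% in K562, 2.54% in THP-1, 1.64% in the MOLM13-labelled library and 2.05% in HL60. The intervals were 1.13 to 1.15% in K562, 2.53 to 2.56% in THP-1, 1.62 to 1.66% in the MOLM13-labelled library and 2.04 to 2.06% in HL60. By aligned bases, which are not divided by length, the shares were 0.191% in K562, 0.341% in THP-1, 0.216% in the MOLM13-labelled library and 0.296% in HL60. From high to low the order was THP-1, HL60, the MOLM13-labelled library and K562 by both measures. This order was the same without SNORA81 and without the members that overlap an exon of another gene. For TPM it was also the same without the 6 members that contain all or most of a microRNA gene. In scaled TPM, which sets the libraries on 1 scale by the median ratio over 3751 genes, the members summed to 13614 in K562, 25064 in THP-1, 14614 in the MOLM13-labelled library and 19558 in HL60. The highest sum was 1.84 times the lowest.

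**Figure D1:**
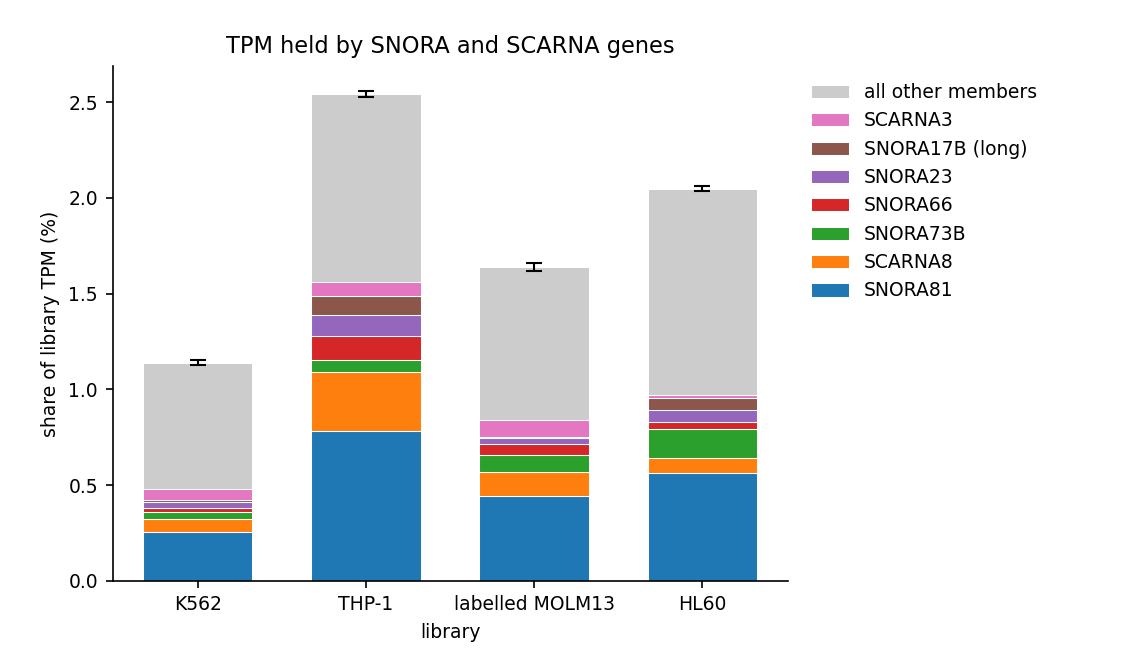
Share of library TPM (%, vertical axis) held by SNORA and SCARNA genes in each of the 4 libraries, split by the 7 members with the highest levels, with black bars for the 95% binomial interval of the whole. SNORA81 is the lowest block of every column, and the THP-1 column, at 2.54%, is the highest.

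A few members made most of these totals. At least 50% of the member TPM lay in 7, 4, 6 and 7 members in K562, THP-1, the MOLM13-labelled library and HL60, and 90% lay in 42, 31, 37 and 40. SNORA81, which lies within the translation initiation helicase gene EIF4A2, had a scaled TPM of 3037 in K562, 7708 in THP-1, 3959.6 in the MOLM13-labelled library and 5364 in HL60. It was highest in THP-1, followed by HL60, and lowest in K562, and its share of the member TPM was 22.3% in K562, 30.8% in THP-1, 27.1% in the MOLM13-labelled library and 27.4% in HL60. The interval was 7618 to 7799 in THP-1 and 2971 to 3104 in K562, so counting error was small beside the difference. It rested on 7869 footprint equivalents in the MOLM13-labelled library, the shallowest, and 30190.0 in HL60, the deepest.

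SCARNA8, also called U92, is an H/ACA scaRNA that guides pseudouridylation of the U2 spliceosomal RNA. Its level was 3038 in THP-1, against 830.3 in K562, 1109 in the MOLM13-labelled library and 781 in HL60, which put THP-1 2.74 times above the next line. SNORA66, from an intron of the ribosomal protein gene RPL5, was at 1214 in THP-1, against 284 in K562, 546 in the MOLM13-labelled library and 372 in HL60. SNORA23, from an intron of the nuclear import receptor gene IPO7, was at 1109.9 in THP-1, against 354 in K562, 244 in the MOLM13-labelled library and 584 in HL60. THP-1 stood above the other lines for all 3, and none of them reached the 4-fold rule described below. Set against the mean of the other lines, the THP-1 total of 25064 was higher by 9135. SNORA81 accounted for 39.3% of that difference and SCARNA8 for 23.3%. SNORA66, SNORA23 and the longer of the SNORA17B genes added 8.904%, 7.84% and 7.51%. Without the MOLM13-labelled library the THP-1 total was higher by 8126, and SNORA81 and SCARNA8 accounted for 41.4% and 26.3%.

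Other members stood out in HL60. SNORA73B, known as U17 or E1, takes part in the cleavage of ribosomal RNA precursors rather than in guiding a modification, and was at 1428 in HL60, against 637 in THP-1, 403 in K562 and 768 in the MOLM13-labelled library. It was highest in HL60 and lay 825 scaled TPM above the mean of the other lines, part of an excess of 1794 in the HL60 total. Without the MOLM13-labelled library the excess of the HL60 total was only 198, with SNORA73B at 869.6 above the mean of K562 and THP-1, so most of the excess of the HL60 total rests on that library while that of SNORA73B does not. SNORA18, SNORA71D, SNORA65 and SNORA79B were each higher in HL60 than in the mean of the others, by 395, 369, 353 and 315 scaled TPM. SCARNA8 and SCARNA3 were lower there, with differences from the mean of the others of -878 and -584. The low total of K562 lay mostly in SNORA81, which was 43.1% of the shortfall, and in SCARNA8, which was 13.2%, or 40.3% and 12.4% without the MOLM13-labelled library. SNORA15 and SNORA3A ran against it, higher in K562 than in the mean of the others by 592 and 489 scaled TPM. In the MOLM13-labelled library, SNORA81 was 29.4% of the shortfall, and SNORA40 was the member furthest above the mean of the others, by 402.

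The members with the highest minimum over the libraries were SNORA81, SCARNA8, SNORA61, SNORA73B and SNORA66. SNORA61, from the non-coding host SNHG12, was the most even of these, at 610.3 in K562, 762 in THP-1, 472 in the MOLM13-labelled library and 633 in HL60, a 1.61-fold range. Evenness was uncommon. Among the 90 compared members above 0 in every library, the median ratio of the highest to the lowest line was 4.53, 10 members stayed under 2 and 29 exceeded 10. SCARNA13 had the narrowest range, 1.33-fold, at 84.1 in K562, 70.9 in THP-1, 94.4 in the MOLM13-labelled library and 78.4 in HL60. Further members among the 10 highest of a library were SNORA9, SNORA58B and SNORA65. SNORA9 (in SNHG15) was at 335 in K562, 217 in THP-1, 405 in the MOLM13-labelled library and 485 in HL60. SNORA58B, in the stress granule gene UBAP2L, was at 435 in K562, 596 in THP-1, 229 in the MOLM13-labelled library and 457 in HL60. SNORA65, in the ribosomal protein gene RPL12, was at 301 in K562, 286 in THP-1, 77.00 in the MOLM13-labelled library and 575 in HL60 and was lowest in the MOLM13-labelled library.

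**Figure D2:**
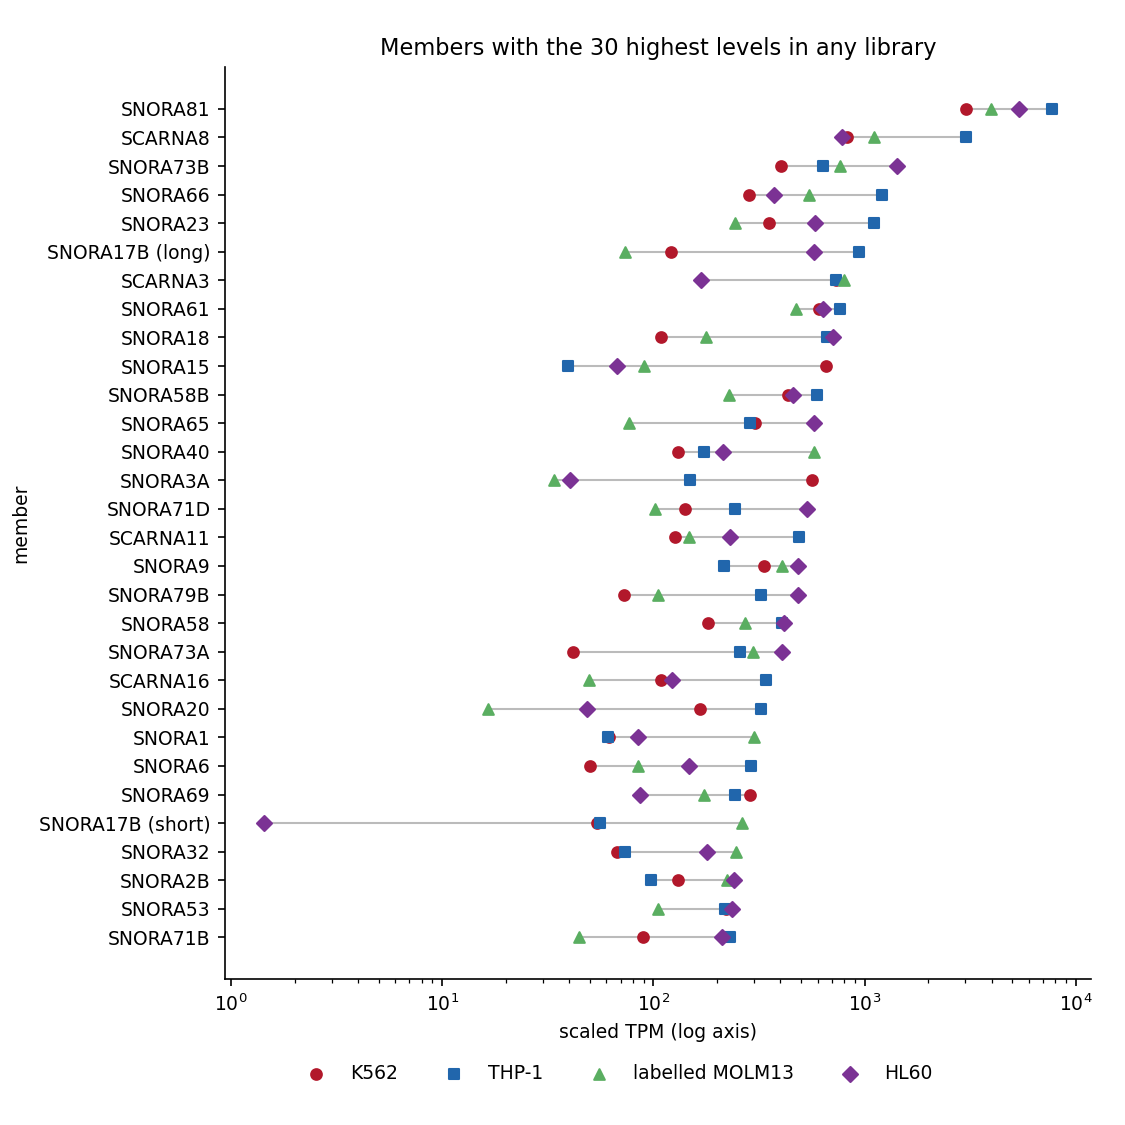
Scaled TPM (log axis) of the 30 members with the highest levels in any library, 1 row per member and 1 symbol per library, with a grey line over the range. SNORA81 lies above every other member in all 4 libraries, at 3037 to 7708, and SNORA61 has the shortest line shown while SNORA15 and SNORA3A stand out to the right in K562.

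Beyond the leading members, most of the compared members lay above the mean of the other lines in HL60 (68 of 107) and THP-1 (70 of 107), but not in the MOLM13-labelled library (40) or K562 (46). For each line, log2(scaled TPM + 1) was set against its mean in the remaining 3, and the median difference over the 107 members was 0.46 in HL60, 0.42 in THP-1, -0.38 in the MOLM13-labelled library and -0.19 in K562. Over all 17210 genes that passed the same minimum it was -0.14 in HL60, 0.02 in THP-1, -0.04 in the MOLM13-labelled library and -0.17 in K562. Without the MOLM13-labelled library the member median was 0.30 in HL60, 0.27 in THP-1 and -0.35 in K562, so each kept its sign and moved by over 1.5 times. Members at least 1 log2 unit above the mean of the others numbered 37 in HL60 (34.6%, against 15.9% of all genes) and 34 in THP-1 (31.8%, against 20.2%). Members at least 1 unit below it numbered 38 in the MOLM13-labelled library (35.5%, against 15.7%) and 36 in K562 (33.6%, against 21.02%). In the other direction the shares of members were closer to those of all genes, at 17.8% against 15.99% higher in K562, 10.3% against 12.1% lower in THP-1, 17.8% against 18.04% higher in the MOLM13-labelled library and 13.1% against 17.2% lower in HL60. The compared members also had higher levels than all compared genes, with medians of 33.9 to 49.7 against 3.46 to 4.51 scaled TPM over the libraries. As TPM divides by length, a short RNA at the minimum of aligned bases has a higher TPM than a longer one. With 1 library a line, none of these shares was tested, nor was the part of level in them. HL60 and THP-1 are also the 2 deeper libraries and the part of depth in this difference was not tested.

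**Figure D3:**
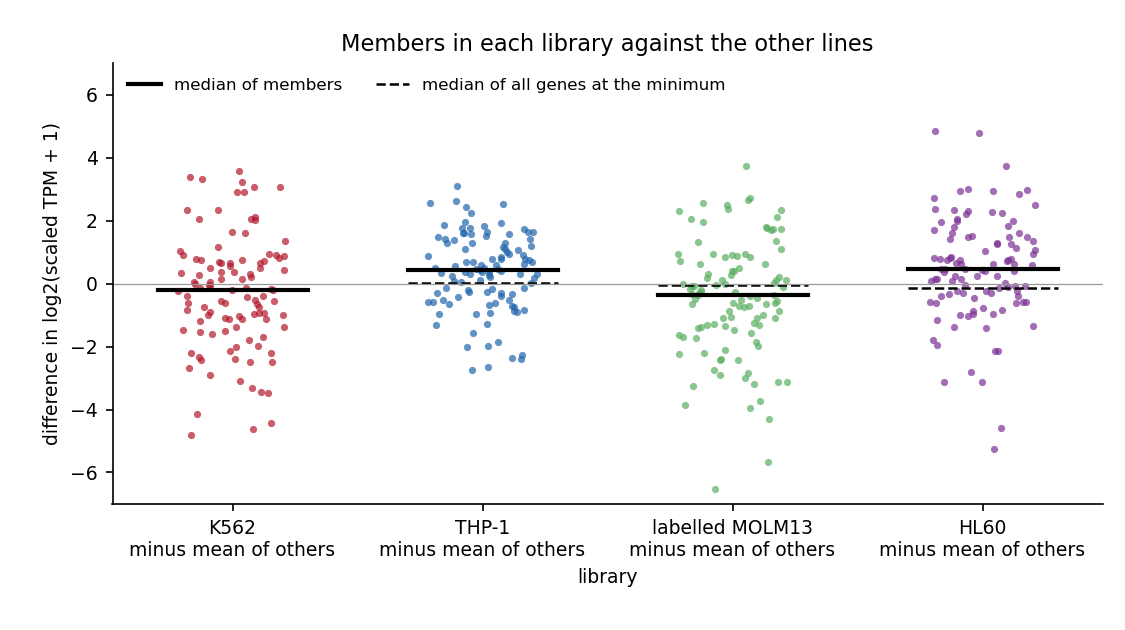
Difference in log2(scaled TPM + 1) of each library from its 3 counterparts' mean (vertical axis), 1 point for each of the 107 compared members, with the median of the members (solid) and of all 17210 compared genes (dashed). The solid line lies above the dashed one in THP-1 and HL60, at 0.42 and 0.46, and below it in the MOLM13-labelled library, at -0.38.

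The H/ACA and C/D classes were not ordered alike over the lines. The share of TPM on the 303 SNORD genes was 5.01% in K562, 2.44% in THP-1, 4.25% in the MOLM13-labelled library and 10.9% in HL60. The ratio of member TPM to SNORD TPM was 0.227 in K562, 1.04 in THP-1, 0.385 in the MOLM13-labelled library and 0.189 in HL60. THP-1 was the only library of the 4 in which the members reached the C/D RNAs, and HL60 had the lowest ratio although its member share came next to that of THP-1. The median difference of the 125 compared SNORD genes was -0.01 in K562, -0.85 in THP-1, -0.76 in the MOLM13-labelled library and 1.27 in HL60, so in THP-1 the member median was positive and the SNORD median negative. By aligned bases the SNORD genes held 0.428% in K562, 0.162% in THP-1, 0.288% in the MOLM13-labelled library and 0.744% in HL60, so without the division by length THP-1 was again the only library of the 4 with more signal on the members. Whether the classes differ between lines was not tested, as there is 1 library for each.

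Single members were then compared by a size rule. High in a line means a log2(scaled TPM + 1) at least 2, a 4-fold step, over every other line, on 600 or more aligned bases in that line. Low means at least 2 under every other line, each of which has 600 or more aligned bases. In K562, 2 members were high, against 2.3% of all compared genes, and 5 were low, against 2.82%. In THP-1, 0 members were high, against 3.28%, and 2 were low, against 0.459%. In the MOLM13-labelled library, 1 member was high, against 1.85%, and 6 were low, against 1.25%. In HL60, 2 members were high, against 1.62%, and 3 were low, against 1.04%. As shares of the 107 members, the high calls came to 1.87, 0, 0.935 and 1.87% in K562, THP-1, the MOLM13-labelled library and HL60, which is no more than the background or close to it. The low calls came to 4.67, 1.87, 5.61 and 2.80%, above the background in each, on 2 to 6 members. A low call needs 600 or more aligned bases in every other line, but both shares are over genes with 600 in any line. How many of the members and of all genes could be called low was not set beside them. The background genes were lower in level, with medians of 3.46 to 4.51 scaled TPM over the libraries, against 33.9 to 49.7 for the compared members. A gene at a low level has less room for a 4-fold fall in log2(scaled TPM + 1). The part of level in these shares was not tested. In all 20 members were called and 87 were not, and 11 of the 20 overlap an exon of another gene.

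**Figure D4:**
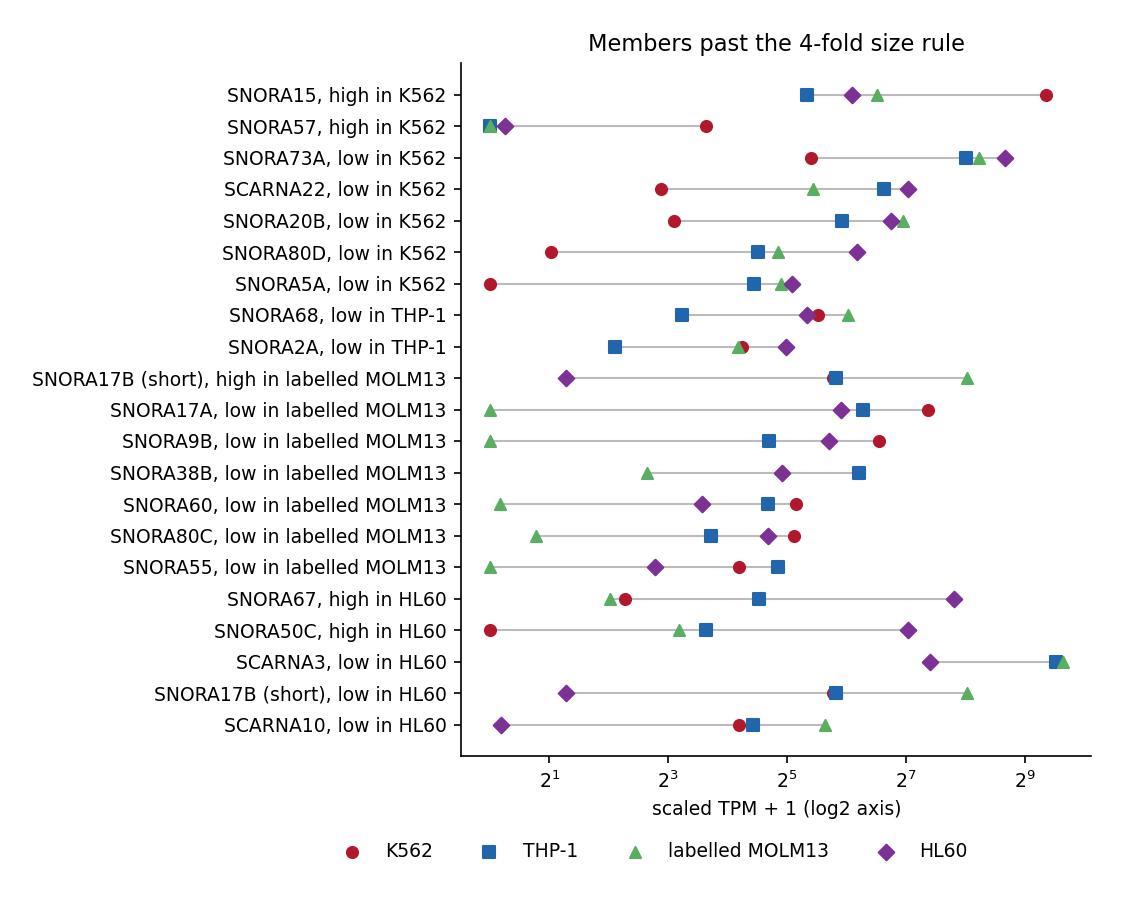
Scaled TPM + 1 (log2 axis) of the 20 members past the 4-fold rule, grouped by the line and direction of the call, with 1 symbol per library. SNORA17B (short) appears under both of its calls, and 4 of the low values are at 0.

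In K562 the clearest high member was SNORA15 (chr7:56060470-56060602, plus strand), in an intron of the chaperonin gene CCT6A. Its level was 658 in K562, against 39.3 in THP-1, 90.5 in the MOLM13-labelled library and 67.03 in HL60. K562 was 7.27 times the next line, with an interval of 622 to 694 against 75.8 to 107. The host showed a much smaller difference, at 307 in K562, 158 in THP-1, 217 in the MOLM13-labelled library and 185 in HL60. SNORA57 was also high, at 11.5 in K562, against 0.188 in HL60 and listings at 0 in THP-1 and the MOLM13-labelled library, but rested on 25.3 footprint equivalents and overlaps an exon of CSKMT. SNORA3A (chr11:8684227-8684356, plus strand), in the ribosomal protein gene RPL27A, came close to the rule with a log2 distance of 1.91, at 563 in K562, against 149 in THP-1, 33.9 in the MOLM13-labelled library and 40.1 in HL60. The other RPL27A member, SNORA3B (chr11:8685439-8685569, plus strand), is 71.8% identical to it and differed less, at 88.9 in K562, 50.04 in THP-1, 44.4 in the MOLM13-labelled library and 97.4 in HL60. SNORA3A overlaps an exon of RPL27A and SNORA3B does not, so the division of reads between SNORA3A and the host is uncertain. RPL27A itself was at 136 in K562, 382 in THP-1, 168 in the MOLM13-labelled library and 883 in HL60. The 3 sequences are printed to compare the pair and the K562 member, with box H and the tail ACA in capitals.
SNORA15: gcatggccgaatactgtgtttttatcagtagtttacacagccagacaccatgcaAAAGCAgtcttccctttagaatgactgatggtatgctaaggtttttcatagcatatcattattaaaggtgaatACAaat
SNORA3A: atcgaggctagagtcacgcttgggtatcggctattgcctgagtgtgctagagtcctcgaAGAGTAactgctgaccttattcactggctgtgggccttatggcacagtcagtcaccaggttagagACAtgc
SNORA3B: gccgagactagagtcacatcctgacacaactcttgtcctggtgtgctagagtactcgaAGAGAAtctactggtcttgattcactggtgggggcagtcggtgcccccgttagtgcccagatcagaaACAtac

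Low members in K562 were SNORA73A, SCARNA22, SNORA20B, SNORA80D and SNORA5A. SNORA73A was at 41.5 in K562, against 258 in THP-1, 298 in the MOLM13-labelled library and 408 in HL60, 6.21 times below the lowest of the others. SNORA73A overlaps an exon of SNHG3, which was highest in K562 at 311, so the division of reads between them is uncertain. SCARNA22, an H/ACA scaRNA in the histone methyltransferase gene NSD2, was at 6.34 in K562, against 98.2 in THP-1, 42.3 in the MOLM13-labelled library and 129.8 in HL60. SNORA20B, which lies in no annotated host on its strand, was at 7.52 in K562, against 59.8 in THP-1, 123 in the MOLM13-labelled library and 106 in HL60. All 3 had an interval in K562 that ended below those of the other libraries, the upper bounds being 49.4, 11.1 and 12.5. These intervals do not cover the division of reads between copies or overlapping records. SCARNA22 overlaps an exon of NSD2. SNORA20, 92.4% identical to SNORA20B, was at 166 in K562, 324 in THP-1, 16.4 in the MOLM13-labelled library and 48.3 in HL60. SNORA80D, in the tRNA synthetase complex gene AIMP2, was at 1.03 in K562, against 21.7 in THP-1, 27.9 in the MOLM13-labelled library and 71.7 in HL60. SNORA80B, 89.7% identical to SNORA80D, was at 59.2 in K562, so the division of reads between them is uncertain. SNORA5A, in TBRG4, was listed at 0 in K562, against 20.7 in THP-1, 28.9 in the MOLM13-labelled library and 33.01 in HL60. In THP-1 the low members were SNORA68, at 8.42 in THP-1, against 45.2 in K562, 63.9 in the MOLM13-labelled library and 39.5 in HL60, and SNORA2A, in KANSL2, at 3.31 in THP-1, against 18.01 in K562, 17.1 in the MOLM13-labelled library and 30.8 in HL60. Both sit near the 4-fold limit, at 4.696 and 5.16 times below the lowest other line.

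In HL60 the high members were SNORA67 (chr17:7577955-7578091, plus strand), in the translation initiation helicase gene EIF4A1, and SNORA50C (chr17:64146339-64146471, plus strand), in SNHG25. SNORA67 was at 222 in HL60, against 22.1 in THP-1, 3.86 in K562 and 3.07 in the MOLM13-labelled library, 10.05 times the next line. SNORA50C was at 131 in HL60, against 11.5 in THP-1 and 8.09 in the MOLM13-labelled library, and was listed at 0 in K562. Both overlap exons of other genes, EIF4A1 and SNHG25 among them, so the division of reads between host and member is uncertain. EIF4A1 itself was at 646 in K562, 407 in THP-1, 480.0 in the MOLM13-labelled library and 659 in HL60, and SNHG25 was lowest in HL60, at 27.3. The 2 sequences follow, with box H and the tail ACA in capitals, as the members most set apart in HL60.
SNORA67: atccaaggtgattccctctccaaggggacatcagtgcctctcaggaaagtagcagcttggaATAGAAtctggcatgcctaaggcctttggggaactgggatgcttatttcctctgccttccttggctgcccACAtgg
SNORA50C: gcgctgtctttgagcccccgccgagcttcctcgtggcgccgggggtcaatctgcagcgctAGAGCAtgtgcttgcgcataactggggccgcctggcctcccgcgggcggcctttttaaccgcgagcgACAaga

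Low members in HL60 included SCARNA3, an H/ACA scaRNA in an intron of the ubiquitin ligase gene COP1. It was at 168 in HL60, against 733 in THP-1, 729 in K562 and 796 in the MOLM13-labelled library, so the other lines lay close together and HL60 was 4.33 times below the lowest of them. SCARNA10, known as U85, carries both kinds of box and guides both modifications of the U5 spliceosomal RNA. It was at 0.132 in HL60, against 20.5 in THP-1, 17.2 in K562 and 49.1 in the MOLM13-labelled library, and its value in HL60 came from 1.38 footprint equivalents. COP1 was at 8.06 in HL60, against 12.2 in THP-1, 8.58 in K562 and 15.8 in the MOLM13-labelled library, and NCAPD2, the condensin gene that hosts SCARNA10, was highest in HL60 at 166.

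The remaining calls involve the MOLM13-labelled library and the SNHG7 members. SNORA17B is annotated as a pair of genes on the same bases, the longer enclosing the shorter. The shorter was at 262 in the MOLM13-labelled library, against 54.02 in K562, 55.7 in THP-1 and 1.44 in HL60, a high call there and a low call in HL60. The longer was at 73.8 in the MOLM13-labelled library, against 121 in K562, 943 in THP-1 and 577 in HL60, with the MOLM13-labelled library lowest. Summed over the pair, SNORA17B was at 335 in the MOLM13-labelled library, against 175 in K562, 999 in THP-1 and 579 in HL60, and neither call was left. The shorter gene's calls therefore rest on how reads were divided between 2 records of the same sequence.

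Low members in the MOLM13-labelled library were SNORA17A, SNORA9B, SNORA38B, SNORA60, SNORA80C and SNORA55. SNORA17A, also in SNHG7, was listed at 0 there, against 166 in K562, 76.95 in THP-1 and 59.4 in HL60. SNORA9B, in the RNA helicase gene DDX55, was listed at 0, against 92.6, 25.1 and 51.3 in the same lines. SNORA9, 91.7% identical to SNORA9B, was at 405 in the MOLM13-labelled library. SNORA38B, in NOL11, was at 5.23 in the MOLM13-labelled library, against 71.97 in K562, 73.4 in THP-1 and 29.3 in HL60. SNORA60 was at 0.125, SNORA80C at 0.709 and SNORA55 at 0, against 5.83 to 34.6 in the other lines. SNORA80A, 89.7% identical to SNORA80C, was at 157 in the MOLM13-labelled library. The division of reads within such pairs of copies is uncertain. SNORA55 lies in the poly(A)-binding protein gene PABPC4. This library was the shallowest, and the part of its depth in these calls was not tested.

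With the MOLM13-labelled library left out and the scaling redone on 3 lines, SNORA15 and SNORA57 were still high in K562, SNORA67 and SNORA50C in HL60, and SCARNA3, SCARNA10 and the shorter SNORA17B were still low in HL60. K562 then had 4 high and 16 low members, against 4.72 and 5.96% of 16663 genes. The further low members in K562 included SNORA18, SNORA73, SCARNA18 and SNORA79B. SNORA79B, in CCNB1IP1, was at 72.9 in K562, 322 in THP-1, 106 in the MOLM13-labelled library and 482 in HL60, where the MOLM13-labelled library lay close to K562. SNORA77B joined the low members of THP-1, with 9.54 in THP-1, against 216 in K562, 18.5 in the MOLM13-labelled library and 83.8 in HL60. HL60 had 5 high members, against 2.41% of all genes, and 3 low ones, against 1.63%. THP-1 had 3 low members, against 0.738%, and 1 high member, against 4.31%. The high one was SNORA11F, at 8.89 in THP-1 and listed at 0 in K562 and HL60, but at 7.96 in the library that was left out.

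The scaRNAs differed by class. H/ACA scaRNAs, 15 genes of which 13 were compared, made up 15.4% in K562, 20.2% in THP-1, 16.5% in the MOLM13-labelled library and 8.58% in HL60 by member TPM, so HL60 had the lowest share although its member total was next to that of THP-1. Without SCARNA8 and SCARNA3 the class was small. SCARNA11 was at 127 in K562, 490.3 in THP-1, 147 in the MOLM13-labelled library and 232 in HL60, with THP-1 highest. SCARNA16, in SNHG20, was at 108 in K562, 343 in THP-1, 49.4 in the MOLM13-labelled library and 123 in HL60, also highest in THP-1. SCARNA14, in the replication fork gene TIPIN, stayed within a 1.90-fold range, at 60.9 in K562, 116 in THP-1, 85.6 in the MOLM13-labelled library and 72.1 in HL60. SCARNA18, listed at 0 in K562, reached 49.4 in THP-1, 13.5 in the MOLM13-labelled library and 12.9 in HL60. SCARNA20 was at 62.1 in K562, 50.1 in THP-1, 25.4 in the MOLM13-labelled library and 34.2 in HL60, with no line set apart. The other H/ACA scaRNAs, SCARNA1, SCARNA4, SCARNA21 and SCARNA23, were at 1.13 to 56.4, and SCARNA21 and SCARNA23 were highest in K562, at 19.8 and 24.4.

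Of the mixed scaRNAs, SCARNA12 (U89), which overlaps exons of the prohibitin gene PHB2, was at 87.5 in K562, 64.8 in THP-1, 68.6 in the MOLM13-labelled library and 174 in HL60. SCARNA5 (U87) and SCARNA6 (U88) share the autophagy gene ATG16L1. SCARNA5 was at 62.1 in K562, 20.7 in THP-1, 62.8 in the MOLM13-labelled library and 65.1 in HL60 and SCARNA6 at 38.6 in K562, 17.4 in THP-1, 24.8 in the MOLM13-labelled library and 28.5 in HL60, so both were lowest in THP-1 and SCARNA5 led in every library. Of the C/D scaRNAs, SCARNA7 was at 80.3 in the MOLM13-labelled library, against 17.8 in K562, 25.97 in THP-1 and 25.1 in HL60, and SCARNA9 did not exceed 4.27, its level in THP-1. SCARNA7 thus stood above the other lines in the MOLM13-labelled library, by 3.09 times, short of the rule.

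The SNORA73 and SNORA74 families show how far the listed levels of copies diverge. SNORA73B and SNORA73A are 93.2% identical and lie in the same host, SNHG3, yet the ratio of SNORA73B to SNORA73A was 9.70 in K562, 2.47 in THP-1, 2.58 in the MOLM13-labelled library and 3.50 in HL60. Both were highest in HL60 and lowest in K562. SNORA73A overlaps an exon of SNHG3 and SNORA73B does not, so the division of reads between SNORA73A and the host is uncertain. SNHG3 itself was at 311 in K562, 29.3 in THP-1, 155 in the MOLM13-labelled library and 94.1 in HL60. A further family member, SNORA73 on chromosome 18, was at 0.941 in K562, 10.2 in THP-1, 2.49 in the MOLM13-labelled library and 33.03 in HL60, and the other 3 genes of that name did not exceed 1.99. Of the SNORA74 family (U19), SNORA74A, in SNHG4, was at 202 in K562, 121 in THP-1, 71.5 in the MOLM13-labelled library and 229 in HL60. SNORA74D, in the same host, was at 40.3 in K562, 5.32 in THP-1, 0.701 in the MOLM13-labelled library and 14.9 in HL60, and SNORA74B stayed between 6.42 and 9.74. The 3 genes named SNORA74 and SNORA74C-1 were listed at 0 throughout, and SNORA74C-2 reached 1.22 in HL60 and was at 0 elsewhere.

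Across the 38 pairs of compared members that share a number, sequence identity ran from 43.0 to 96.9%, and in 14 pairs both genes were highest in the same line. SNORA40 and SNORA40B are 96.9% identical and lie on chromosomes 11 and 2. Their ratio was 7.497 in the MOLM13-labelled library, against 1.19 in K562, 1.64 in THP-1 and 2.93 in HL60. SNORA77B and SNORA77 are 92.8% identical, and their ratio was 3.20 in K562 and 0.0857 in THP-1. SNORA20 and SNORA20B are 92.4% identical, with a ratio of 22.1 in K562 and 0.133 in the MOLM13-labelled library. How reads that align to more than 1 copy were assigned is not given in the sources used here, so levels within such pairs are uncertain.

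Of the compared members, 104 lie within a host gene on the same strand, in 81 hosts, and 15 hosts hold more than 1 compared member. EIF4A2 holds SNORA81, SNORA4 and SNORA63, which all overlap annotated exons of it, so the division of reads between them and the host is uncertain. SNORA4 stayed within a 1.77-fold range, at 52.8 in K562, 53.1 in THP-1, 48.4 in the MOLM13-labelled library and 85.6 in HL60. SNORA63 (E3) was at 21.3 in K562, 0.228 in THP-1, 17.4 in the MOLM13-labelled library and 0.134 in HL60, so it was present in K562 and the MOLM13-labelled library and near 0 in THP-1 and HL60, where SNORA81 was highest. SNORA81 made up 97.6 to 99.3% of the summed level of the 3 members. EIF4A2 itself was at 283 in K562, 205 in THP-1, 248 in the MOLM13-labelled library and 130.0 in HL60, and was thus lower in THP-1 and HL60 than in K562, the reverse of SNORA81.

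TAF1D, a gene for a subunit of the RNA polymerase I selectivity factor, holds 5 compared members, and their order changed between lines. All 5 overlap annotated exons of TAF1D, so the division of reads between them and the host is uncertain. SNORA18 was at 109 in K562, 666 in THP-1, 177 in the MOLM13-labelled library and 713 in HL60 and led in THP-1 and HL60. SNORA40 was at 130.2 in K562, 174 in THP-1, 574 in the MOLM13-labelled library and 213 in HL60 and led in K562 and the MOLM13-labelled library. SNORA1 was at 61.5 in K562, 61.03 in THP-1, 301 in the MOLM13-labelled library and 84.9 in HL60. SNORA32 was at 67.5 in K562, 73.2 in THP-1, 247 in the MOLM13-labelled library and 179 in HL60, and SNORA25 did not exceed 24.9. All of the TAF1D members except SNORA18 were highest in the MOLM13-labelled library, while TAF1D itself was at 93.3 in K562, 37.9 in THP-1, 93.7 in the MOLM13-labelled library and 51.02 in HL60. In SNHG17, SNORA71D and SNORA71B were at 102 to 532 and 44.5 to 232, whereas SNORA71A, 84.3% identical to SNORA71D, stayed between 7.54 and 13.9. In CNOT1, a deadenylase scaffold gene, SNORA50A and SNORA46 kept a ratio of 1.55 to 2.02 in every library and were both highest in THP-1, at 169 and 84.8. In EIF4A1, SNORA48 was at 2.798 in K562, 37.9 in THP-1, 12.8 in the MOLM13-labelled library and 62.1 in HL60, with the same line highest as for SNORA67. In RPSA, SNORA6 was at 50.3 in K562, 291 in THP-1, 84.6 in the MOLM13-labelled library and 148 in HL60, while SNORA62 (E2) did not exceed 9.56.

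**Figure D5:**
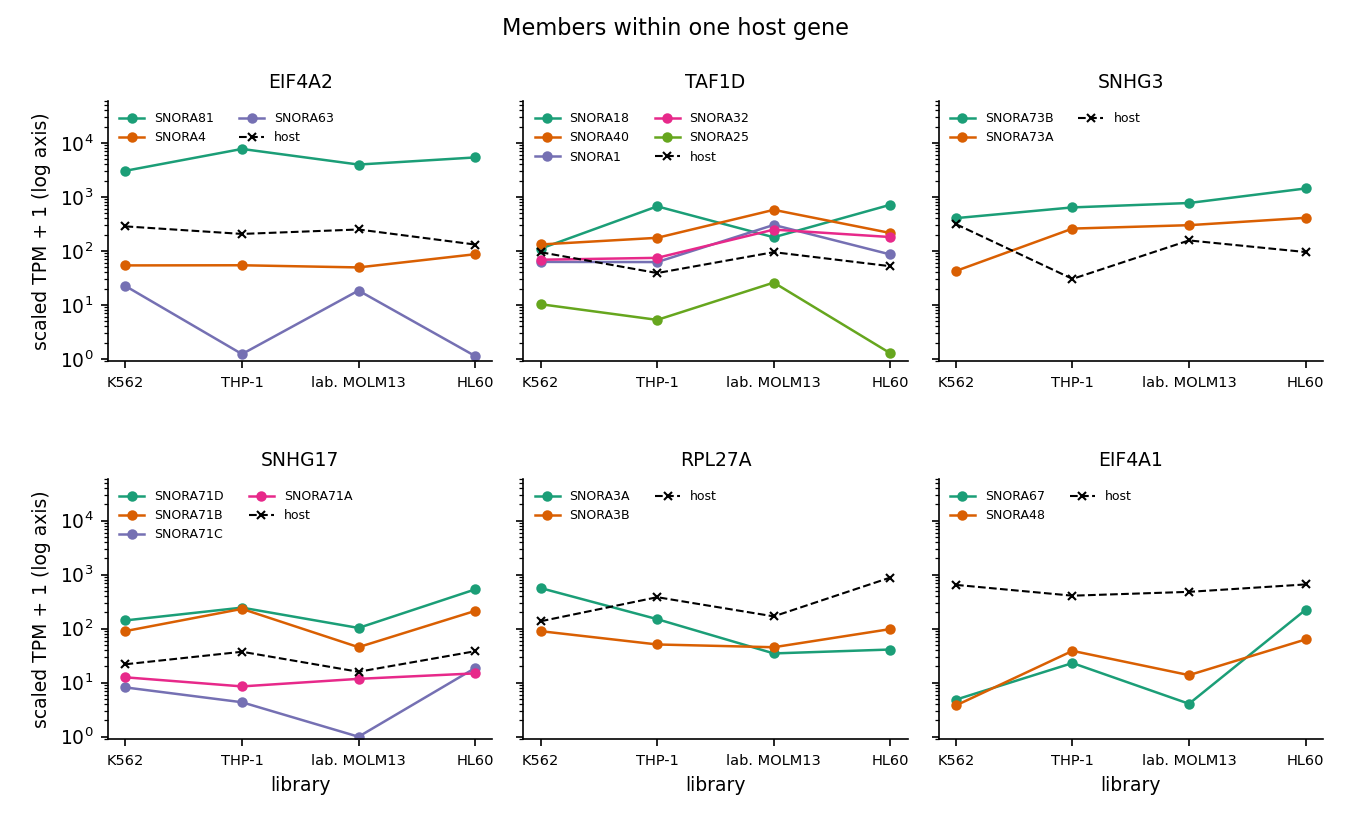
Scaled TPM + 1 (log axis) of the compared members of 6 host genes in the 4 libraries, 1 colour per member, with the host gene as a black dashed line (lab. MOLM13 is the MOLM13-labelled library, and lines join the values of a gene). In EIF4A2, SNORA81 lies above the host in every library and SNORA63 near the floor in THP-1 and HL60, and in RPL27A SNORA3A lies above the host in K562 only.

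Over the 104 members with a host, Spearman's rho between the level of the member and that of the host was near 0 in every library, at -0.05 in K562, -0.05 in THP-1, 0.01 in the MOLM13-labelled library and 0.08 in HL60. For differences from the mean of the others, rho between member and host was -0.01, 0.27, 0.26 and 0.12 in the same order. Among the 51 members that overlap no exon of another gene it was 0.15, 0.46, 0.14 and 0.29. These are descriptions across genes measured in the same libraries, and weak. Of the 18 called members with a host, 0 had a host called in the same direction and line. Of all compared genes, only 0.459 to 3.28% were called in a given line and direction, and 0 of 18 is close to that. The member lay above its host in 46 to 61 of the 104 pairs, depending on the library.

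Members that contain all or most of a microRNA gene numbered 6. The first 27 bases of SNORA81 are those of hsa-miR-1248, printed from RefSeq (GRCh38.p14) with its seed, bases 2 to 8, in capitals. The table's microRNA gene, MIR1248, spans 106 bases and shares 103 of them with SNORA81. MIR1248 had a scaled TPM of 855 in K562, 1475 in THP-1, 1477 in the MOLM13-labelled library and 583 in HL60, and received 14.4, 10.2, 18.2 and 6.08% of the aligned bases of both records. The record of SNORA81 led in every library under this division. How much of its signal lies on the shared bases is not given, so its rank under another division was not tested. The fragments are too short to tell a mature microRNA from a piece of the snoRNA. Of the bases of both records, MIR6516 in SCARNA16 received 1.201 to 9.51% over the libraries, and MIR664B in SNORA36A received 0.863 to 26.9%. MIR664A in SNORA36B and MIR3651 in SNORA84 were listed at 0, and SNORA2C, which holds most of MIR1291, was under the minimum.
hsa-miR-1248: aCCUUCUUguauaagcacugugcuaaa

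The genes of the proteins that bind these RNAs were set beside the members. DKC1, the gene of the pseudouridine synthase dyskerin, was at 153 in K562, 76.6 in THP-1, 165 in the MOLM13-labelled library and 131 in HL60. GAR1 was at 172 in K562, 87.1 in THP-1, 149 in the MOLM13-labelled library and 225 in HL60. Both were lowest in THP-1, the line with the highest member total, where they were about 1 log2 unit below the mean of the others (-0.95 and -1.03). NHP2 was at 209 in K562, 226 in THP-1, 273 in the MOLM13-labelled library and 329.6 in HL60, and NOP10 at 465 in K562, 474 in THP-1, 494 in the MOLM13-labelled library and 535 in HL60, the most even of the 4 core proteins. Among the assembly factors, SHQ1 was at 3.02 in K562, against 12.5 in THP-1, 29.4 in the MOLM13-labelled library and 26.3 in HL60, lowest in K562. NAF1 was at 52.02 in K562, 22.3 in THP-1, 28.6 in the MOLM13-labelled library and 38.4 in HL60. RUVBL1 and RUVBL2 stayed between 64.97 and 344. Of the Cajal body genes, COIL, which encodes the scaffold coilin, was even, at 17.1 to 24.2. WRAP53, whose product brings scaRNAs to Cajal bodies, was at 13.4 in K562, 7.77 in THP-1, 16.9 in the MOLM13-labelled library and 4.81 in HL60. TGS1, which caps small RNAs, was highest in the MOLM13-labelled library, at 89.7, against 11.3 to 24.6 elsewhere. LSM10 and LSM11, of the histone RNA processing particle, were at 8.19 to 14.3 and 0.160 to 2.104. None of these 13 protein genes was called in any line, on either side.

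Outside the naming rule, an RNA of the same box class was called. TERC, the telomerase RNA, has an H/ACA domain that binds the same proteins and a Cajal body signal. It was at 212 in THP-1, against 3.17 in K562, 2.54 in the MOLM13-labelled library and 1.67 in HL60, on 2333 footprint equivalents in THP-1 and 15.4 to 28.6 in the others. TERT, the telomerase protein gene, was above 0 only in THP-1, at 0.589, on 63.2 footprint equivalents. TERC and SCARNA8 were thus both highest in THP-1, TERC alone past the 4-fold rule.

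Over the 107 members, Spearman's rho between libraries was highest for the levels of THP-1 and HL60, at 0.83, and lowest for those of K562 and HL60, at 0.70. The other pairs ran from 0.70 to 0.79. Members with a 4-fold or larger gap numbered 17 between THP-1 and HL60 (15.9%, against 10.8% of all genes) and 38 between the MOLM13-labelled library and HL60 (35.5%, against 16.7%). For the MOLM13-labelled library and HL60, 29 of the 38 were higher in HL60. For K562 and HL60 it was 34 (31.8%, against 19.0% of all genes), of which 25 were higher in HL60, and for K562 and THP-1 also 34 (31.8%, against 19.6%), of which 24 were higher in THP-1. K562 and the MOLM13-labelled library differed 4-fold in 35 members (32.7%, against 14.6%), split evenly as 18 higher in K562 and 17 higher in the MOLM13-labelled library. Likeness of lines and likeness of depth cannot be told apart here, as THP-1 and HL60 were also the deeper libraries. The compared members had higher levels than all compared genes, as given above, and the part of level in the 4-fold shares was not tested.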

How the data were processed

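Ribosome-protected fragments of 4 leukemia cell lines were sequenced, with 1 library per line, so no comparison has a replicate, a test, a standard error or a p-value. Per the submitters' processing notes, the authors worked on hg38 with StringTie 2.1.5, STAR 2.7.8a, Bowtie2 2.4.2 and Trim Galore 0.6.6. According to the tables' own headers, StringTie estimated GENCODE release 37 transcripts from read 1, with no new transcripts and no strand option, so sense and antisense reads cannot be told apart, and the division of reads between overlapping records is its estimate. The deposited tables give each transcript a TPM, an FPKM and a mean per-base coverage, per the file headers. FPKM was not used.

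From these, TPM was summed per gene identifier and aligned bases were taken as coverage times length. TPM was divided by a library factor, taken as the median of gene-wise ratios to the 4-library geometric mean (3751 genes, each at a TPM of 10 or more everywhere), of 0.837 in K562, 1.01 in THP-1, 1.12 in the MOLM13-labelled library and 1.05 in HL60. Genes with 600 aligned bases in any library were compared, 17210 in all, after a pseudocount of 1. Exact 95% Poisson and binomial intervals rest on aligned bases divided by 29, and PCR copies are not independent molecules. A host is a gene on the same strand that contains the member. The genes named are the 10 highest members of each line, all called members, the 5 with the highest minimum, the SNORA73 and SNORA74 families, the compared SCARNA genes and the listed protein genes. Other members are named as further members of a host or of a sequence pair, or because a call appeared without the MOLM13-labelled library, and were chosen after their values were seen. The members, lists and rules were chosen with earlier results of these data known. Alternatives were deposited TPM, undivided bases, other pseudocounts, size limits and minimums, members without exon overlap and leaving out the MOLM13-labelled library. Tools were Biopython 1.88, Matplotlib 3.10.9, pandas 2.3.3, NumPy 2.4.6, SciPy 1.17.1 and Python 3.11.15. The sequences of 1 pair of members and the host of 1 member are not reported here.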

Additional observations from a re-analysis of the deposited data

How the results depend on the processing

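No paired analysis was possible because each line has 1 library. With 1 library a line, counting error is the only error measured, and genes near 600 aligned bases carry wide intervals. The 31 medians recomputed under 8 alternatives kept their sign, and 8 of them moved by over 1.5 times. The member median was -0.53 in K562 and -0.19 in the MOLM13-labelled library with deposited TPM, 0.26 in THP-1 with bases not divided by length, -0.30 in K562 without exon overlap and -0.34 in K562 over all members above 0. It was -0.35 in K562, 0.27 in THP-1 and 0.30 in HL60 without the MOLM13-labelled library. K562 rather than the MOLM13-labelled library had the lowest median with deposited TPM and without exon overlap. With deposited TPM the median of all genes was -0.35 in K562 and 0.13 in the MOLM13-labelled library, against -0.17 and -0.04 after scaling. Counts of calls moved by over 1.5 times in 41 of 86 cases, and the order of the shares did not change. Except without the MOLM13-labelled library, the share of all genes called under each setting is not given. The counts below therefore show only how the calls depend on the setting. With deposited TPM there were 1 low member in THP-1 and 2 high in the MOLM13-labelled library. With bases not divided by length there were 1 high and 2 low in K562, 0 low in THP-1, and 0 high and 2 low in the MOLM13-labelled library. A pseudocount of 0.1 gave 4 high in HL60, and one of 5 gave 1 high in K562, 0 low in THP-1 and 2 low in the MOLM13-labelled library. Among the 54 members without exon overlap there were 1 high and 3 low in K562, 1 low in THP-1, 0 high and 3 low in the MOLM13-labelled library, and 0 high and 1 low in HL60. Without the MOLM13-labelled library there were 4 high and 16 low in K562, 1 high in THP-1 and 5 high in HL60. A log2 distance of 1 gave 8 high in K562, 8 high in THP-1, 7 high and 11 low in the MOLM13-labelled library, and 13 high and 5 low in HL60. A distance of 3 gave 1 high and 2 low in K562, 0 low in THP-1, and 0 high and 3 low in the MOLM13-labelled library. A minimum of 300 bases gave 8 low in K562, 3 high in THP-1 and 3 high in the MOLM13-labelled library, and one of 1500 gave 1 high and 3 low in K562, 1 low in THP-1 and 3 low in the MOLM13-labelled library. Summing SNORA17B, SNORA16A, SCARNA4 and SNORA50A over their paired records, chosen after the data were seen, left 0 high in the MOLM13-labelled library. The share of TPM in K562, THP-1, the MOLM13-labelled library and HL60 was 0.885, 1.76, 1.195 and 1.49% without SNORA81 and 0.501, 1.07, 0.698 and 0.771% without exon overlap. In the same order it was 0.872, 1.72, 1.18 and 1.47% without members that hold all or most of a microRNA gene, also chosen after the data were seen. The share of bases was 0.142, 0.222, 0.150 and 0.206% without SNORA81 and 0.0814, 0.135, 0.0886 and 0.112% without exon overlap. These shares differ because members were removed; the cause of the other changes was not tested.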
